A study of Mus musculus with 23 samples.

Results

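Genes linked to T helper 17 (Th17) cells, together with the Tmem176 gene pair, were followed across 4 populations of mouse CD4+ T cells sorted by CD25 and CD49f. The members were Tmem176a, Tmem176b, Il17re, Rora, Il23r and Ahr, chosen by name with earlier results of these data known. Every probe set annotated to exactly 1 of them was used. This gave 18 of the 45037 probe sets tested, which cover 5 of 18193 genes: 3 probe sets for Tmem176a, 1 for Tmem176b, 3 for Il17re, 9 for Rora and 2 for Ahr. No probe set named Il23r alone, so Il23r was not analysed here.

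Of the 23 arrays in the series, 4 carried CD25+CD49f+ cells, 5 CD25+CD49f- cells, 7 CD25-CD49f+ cells and 7 CD25-CD49f- cells. All were sorted as CD4+ T cells and are labelled as T cells of female mice, each array as its own biological replicate. Strain, age, organ and any treatment are not given in the sources used here, and the labels name the gates but no pooling. CD25 is the alpha chain of the interleukin 2 receptor, which marks most regulatory T cells, and CD49f is integrin alpha 6, a laminin receptor chain. The values are log2 expression levels, so a difference of 1 is a 2-fold change, and differences were tested with limma over all probe sets at an adjusted p under 0.05. Each p-value rests on the spread between these arrays alone, whose number limits the precision.

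Before the results, several checks bear on the arrays. Cd3e averaged between 11.65 and 11.70 and Cd4 between 9.12 and 9.68 in the 4 groups, while Cd8b1 averaged between 5.01 and 5.14. Il2ra, which encodes CD25, averaged 9.60 in CD25+CD49f+ cells, 9.69 in CD25+CD49f- cells, 6.84 in CD25-CD49f+ cells, with 5.42 in CD25-CD49f- cells, and Foxp3, the lineage factor of regulatory T cells, averaged 9.85, 9.79, 8.25 and 4.74 in the same order. Itga6, which encodes CD49f, did not follow the CD49f gate at the RNA level: among CD25+ cells the CD49f+ minus CD49f- difference was 0.16 ± 0.10 (SE; limma adjusted p = 0.99999), and among CD25- cells it was lower with CD49f (-0.44 ± 0.08, adjusted p = 0.000512). Against the label of female mice, Y-linked transcripts were found and Xist was not on 10 of the 23 arrays, while CD25+CD49f- replicate 5 held both. These arrays were spread over the groups (2 of 4, 2 of 5, 3 of 7 and 3 of 7, in the order above). In addition, 4 arrays stood apart from the rest of their own groups, with mean correlations of 0.967 to 0.981 against 0.985 to 0.994 for the rest: CD25+CD49f- replicate 5, CD25-CD49f+ replicate 1, and CD25-CD49f- replicates 1 and 7. The Affymetrix Actb 3′ minus 5′ difference, which rises as RNA degrades, was 4.83 on the first of these and 2.70 on CD25-CD49f- replicate 1, against 1.22 to 2.09 on all other arrays, and as a covariate it changed no call of the 5 measured genes. Calls of these genes that were lost within the arrays with or without Y-linked transcripts, or changed without the 4 that stand apart, are given beside the results.

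Th17 cells are helper T cells that make interleukin 17 and act at barrier tissues. Rora encodes RORα, a nuclear receptor that contributes to their identity, which is maintained through the receptor for interleukin 23, whose specific chain is Il23r and whose shared chain is Il12rb1. Ahr encodes the aryl hydrocarbon receptor, which senses dietary and microbial ligands and is high in Th17 cells and in some regulatory T cells. Il17re encodes a receptor chain that, with Il17ra, binds interleukin 17C. Tmem176a and Tmem176b encode related membrane proteins of intracellular compartments, distant relatives of the MS4A family, and have been described in dendritic cells. Some regulatory T cells share parts of this program.

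The members fell into separate patterns. Tmem176a, Tmem176b and Il17re, the last by 1 of its 3 probe sets, stood high in CD25+CD49f- cells and low in the other populations. Rora and Ahr were lowest in CD25-CD49f- cells and higher in each of the other populations. Between CD25+CD49f+ and CD25+CD49f- cells, 7 of the 18 member probe sets passed the test and all 7 were lower, whereas 1.11% of all probe sets passed in either direction and 0.913% were lower. Between CD25-CD49f+ and CD25-CD49f- cells, 10 passed, 7 higher and 3 lower, against 9.83% of all probe sets (5.45% higher and 4.38% lower). Between CD25+CD49f- and CD25-CD49f- cells, 12 passed and all were higher, against 9.96% of all probe sets in either direction and 6.07% higher. Because members and gene lists were chosen with earlier results of these data known, such shares describe the chosen genes and do not test them as a set. The array values cannot tell fewer cells of a type from less RNA per cell in any of these comparisons.

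**Figure D1:**
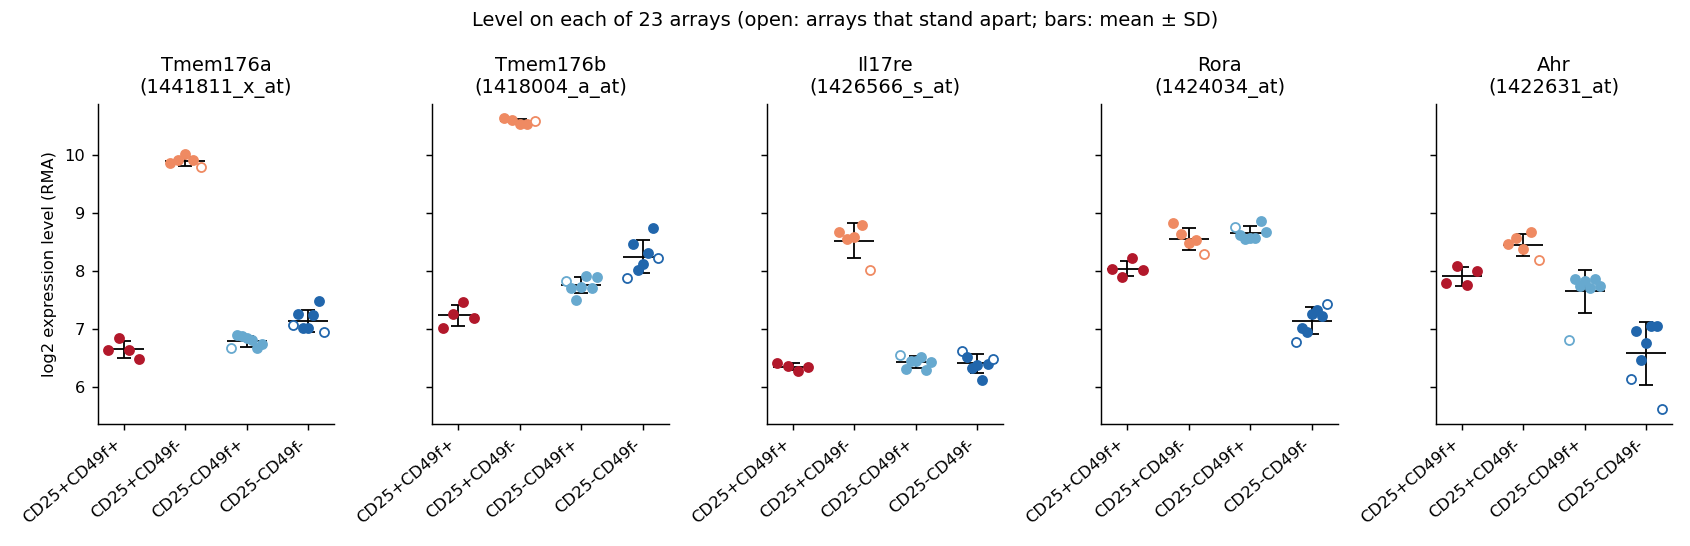
Log2 expression level (RMA) of the probe set that gives each gene's level, on each of the 23 arrays, for CD25+CD49f+, CD25+CD49f-, CD25-CD49f+ and CD25-CD49f- cells from left to right; bars show the mean ± SD and open points the 4 arrays that stand apart. CD25+CD49f- cells lie above every other array for Tmem176a, Tmem176b and Il17re, and CD25-CD49f- cells lie below every other array for Rora.

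The Tmem176 genes lie side by side on chromosome 6. In GRCm38.p6, Tmem176a spans chr6:48841483-48845364 on the forward strand and Tmem176b spans chr6:48833811-48845948 on the reverse strand, so the annotated spans overlap. RefSeq start windows, each from 250 bases before to 50 bases after a transcript's first base, are given for 5 of the 6 members, with 2 windows for Tmem176a and 3 for Tmem176b. One window of each gene is shown because the pair moved together on the arrays and the windows face each other over the same stretch. Their first bases lie 109 bases apart, and 208 bases, chr6:48841325-48841532, belong to both windows. The shared run is in capitals, and each window is written 5′ to 3′ on its own gene's strand, so that the capitals of each are the reverse complement of the other.
Tmem176a, chr6:48841233-48841532, forward strand: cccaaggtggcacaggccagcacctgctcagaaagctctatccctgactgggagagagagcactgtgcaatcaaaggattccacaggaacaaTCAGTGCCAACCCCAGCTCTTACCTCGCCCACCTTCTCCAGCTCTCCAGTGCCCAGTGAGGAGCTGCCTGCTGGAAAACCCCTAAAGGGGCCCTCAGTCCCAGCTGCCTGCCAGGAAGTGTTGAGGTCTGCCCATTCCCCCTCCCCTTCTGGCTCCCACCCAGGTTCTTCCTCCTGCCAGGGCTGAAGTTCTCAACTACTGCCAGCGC
Tmem176b, chr6:48841325-48841624, reverse strand: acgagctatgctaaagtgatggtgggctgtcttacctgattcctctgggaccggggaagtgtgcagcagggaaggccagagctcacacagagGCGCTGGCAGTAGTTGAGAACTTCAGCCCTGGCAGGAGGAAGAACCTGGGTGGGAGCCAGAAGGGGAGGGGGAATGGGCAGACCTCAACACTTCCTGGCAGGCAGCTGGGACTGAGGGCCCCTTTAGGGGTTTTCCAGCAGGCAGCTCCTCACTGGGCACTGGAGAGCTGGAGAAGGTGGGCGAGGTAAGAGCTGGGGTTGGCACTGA
In these and the remaining windows of the pair, on both strands, neither AGGTCA, the core bound by ROR receptors, nor GCGTG, the core bound by the aryl hydrocarbon receptor with Arnt, nor the STAT motif TTCNNNGAA was found. For comparison, 16.3%, 32.4% and 8.3% of the 32851 windows of the same length in the table hold these motifs. The Rora window holds GCGTG on 1 occasion, the Il23r window holds AGGTCA on 2, and the Il17re window holds none of the 3. Absence of these letters from a window says nothing about binding elsewhere.

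Tmem176a, measured by the brightest of its probe sets (by mean level over all arrays), read 6.63, 6.84, 6.63 and 6.48 in CD25+CD49f+ cells, against 9.85, 9.90, 10.01, 9.90 and 9.79 in CD25+CD49f- cells. In CD25-CD49f+ cells its lowest, median and highest levels were 6.66, 6.80 and 6.90, against 6.94, 7.06 and 7.48 in CD25-CD49f- cells. Every CD25+CD49f- array lay well above every other array, and the 2 CD25- populations did not overlap, CD25-CD49f+ cells being the lower. Tmem176a was 9.48-fold lower in CD25+CD49f+ cells than in CD25+CD49f- cells (log2 difference -3.24 ± 0.10, SE; limma adjusted p = 3.94e-17). In CD25-CD49f+ cells it was 1.28-fold lower than in CD25-CD49f- cells (-0.36 ± 0.08, adjusted p = 0.00303), which is a small step beside the first. That call was lost within the arrays without Y-linked transcripts (-0.26, adjusted p = 0.221) and within those with them (-0.49, adjusted p = 0.106).

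Both further Tmem176a probe sets ranked CD25+CD49f- cells highest. For the second in brightness the levels averaged 6.26 in CD25+CD49f+ arrays, against 9.54 in CD25+CD49f- arrays, with a CD49f difference of -3.28 ± 0.14 (adjusted p = 3.22e-14). For the dimmest they averaged 5.67 and 9.68 in these populations, with a CD49f difference of -4.01 ± 0.14 (adjusted p = 1.03e-15). They disagreed on the smaller CD49f step in CD25- cells, where the second passed (-0.40, adjusted p = 0.0204) and the dimmest did not (-0.18, adjusted p = 0.414).

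Tmem176b, measured by a single probe set, read 7.02, 7.26, 7.46 and 7.20 in CD25+CD49f+ cells, against 10.63, 10.60, 10.53, 10.53 and 10.59 in CD25+CD49f- cells. Its lowest, median and highest levels were 7.50, 7.72 and 7.92 in CD25-CD49f+ cells, against 7.87, 8.23 and 8.74 in CD25-CD49f- cells. The CD25+CD49f- arrays again lay above all others and close to one another, and here the CD25- populations overlapped at their edges. Tmem176b was 10.1-fold lower in CD25+CD49f+ cells than in CD25+CD49f- cells (-3.34 ± 0.13, limma adjusted p = 6.08e-15). The CD49f difference in CD25- cells was -0.49 ± 0.10 (adjusted p = 0.00193), and within the arrays without Y-linked transcripts -0.39 (adjusted p = 0.0913).

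All 4 levels of Tmem176b could be put in order: CD25+CD49f- cells highest, then CD25-CD49f-, CD25-CD49f+ and CD25+CD49f+ cells, each step passing the test. The lowest step, CD25+CD49f+ below CD25-CD49f+ cells (-0.52 ± 0.12, adjusted p = 0.0132), was lost without CD25+CD49f+ replicate 1 (-0.45, adjusted p = 0.0923) or replicate 4 (-0.51, adjusted p = 0.0531). Tmem176a took the same order, but its lowest step did not pass (-0.14 ± 0.09, adjusted p = 0.789, 95% interval -0.33 to 0.05). Across the 23 arrays the pair correlated at r = 0.979, a description over arrays that share their groups.

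Il17re lies on chromosome 6 as well, at chr6:113458699-113470758. By its brightest probe set it read 6.41, 6.37, 6.28 and 6.34 in CD25+CD49f+ cells, against 8.68, 8.56, 8.58, 8.79 and 8.01 in CD25+CD49f- cells. Its lowest, median and highest levels were 6.29, 6.44 and 6.56 in CD25-CD49f+ cells, against 6.13, 6.40 and 6.62 in CD25-CD49f- cells. The CD25+CD49f- arrays stood alone, the lowest of them being replicate 5, and the other populations overlapped one another throughout. Il17re was 4.51-fold lower in CD25+CD49f+ cells than in CD25+CD49f- cells (-2.17 ± 0.12, limma adjusted p = 4.56e-12), and the CD49f difference in CD25- cells was 0.02 (95% interval -0.17 to 0.22, adjusted p = 0.939).

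No step among the 3 lower populations passed for Il17re. For scale, 17 transcripts of other tissues, which T cells should lack, averaged between 2.94 and 6.74 on these arrays, with a median of 4.63. The low Il17re and Tmem176a levels fall within or near the upper end of that range, which is set by Prm1. The deposited values carry no detection call, and the folds against those levels are ratios of array signal. The 2 further Il17re probe sets did not pass in any comparison: the brighter averaged 6.57, 6.78, 6.57 and 6.43, and the dimmer averaged 4.91, 5.06, 4.88 and 4.80, in CD25+CD49f+, CD25+CD49f-, CD25-CD49f+ and CD25-CD49f- cells. Their highest mean was nonetheless in CD25+CD49f- cells, with differences of 0.35 (adjusted p = 0.0525) and 0.26 (adjusted p = 0.0883) over CD25-CD49f- cells, and both were called there without the 4 arrays that stand apart (0.50 and 0.30, adjusted p = 0.000528 and 0.0450). The brightest probe set ranked first through CD25+CD49f- cells alone. In CD25+CD49f+, CD25-CD49f+ and CD25-CD49f- cells it averaged 6.35, 6.43 and 6.41, below the brighter of the further 2. The choice of this probe set therefore leans on the population in which it was high.

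The genes whose levels followed these 3 members most closely overlapped between them. Pxdc1 correlated with Il17re at r = 0.990 and with Tmem176a at r = 0.976 over the 23 arrays, and Hebp1, which encodes a heme-binding protein, correlated with Tmem176b at r = 0.986. Dll1, a Notch ligand, followed Il17re at r = 0.985 and Tmem176a at 0.968. Hebp1 averaged 5.36 in CD25+CD49f+ arrays, 8.52 in CD25+CD49f- arrays, 5.64 in CD25-CD49f+ arrays and 6.17 in CD25-CD49f- arrays, which is the order of the Tmem176 pair. Stfa3 (0.968 with Tmem176a, 0.943 with Tmem176b), Adam8 (0.938 with Tmem176b), Ckb and Chst11 (0.979 and 0.974 with Il17re) completed the closest 4 of each gene. These correlations were taken over 9035 genes with a mean level of at least 6 and describe arrays that share their groups. Some genes reached that mean only through CD25+CD49f- cells. Dll1 averaged 7.84 there, against 5.57, 5.45 and 5.56 in CD25+CD49f+, CD25-CD49f+ and CD25-CD49f- cells, and Ckb 8.09 against 5.67, 5.48 and 5.54. For such genes r largely sets that population against the others.

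Rora spans chr9:68653404-69388246. Its level was taken from the brightest of its 9 probe sets, which read 8.03, 7.89, 8.22 and 8.02 in CD25+CD49f+ cells, against 8.82, 8.63, 8.47, 8.52 and 8.30 in CD25+CD49f- cells. In CD25-CD49f+ cells its lowest, median and highest levels were 8.55, 8.61 and 8.87, against 6.78, 7.23 and 7.43 in CD25-CD49f- cells. CD25-CD49f- arrays lay below all others, with no overlap with any population, and the CD25+CD49f+ arrays lay below both single positive populations. Rora was 2.86-fold higher in CD25-CD49f+ cells than in CD25-CD49f- cells (1.52 ± 0.10, limma adjusted p = 3.53e-11), a direction opposite to that of the Tmem176 pair in the same cells. In CD25+ cells it was 1.42-fold lower with CD49f (-0.51 ± 0.12, adjusted p = 0.0315).

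The Rora difference in CD25+ cells was the least stable call among the members. It was lost on leaving out any 1 of 6 arrays (CD25+CD49f+ replicates 1, 2 and 4, and CD25+CD49f- replicates 1, 2 and 4), with differences of -0.52 to -0.44 and adjusted p-values of 0.0635 to 0.156. It measured -0.77 (adjusted p = 0.185) within the arrays without Y-linked transcripts and -0.31 (adjusted p = 0.866) within those with them. Without the 4 arrays that stand apart it was -0.57 ± 0.10 (adjusted p = 0.00160).

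Rora had the most probe sets, and they split by their level. The second in brightness followed the brightest closely: it averaged 7.54, 8.10, 8.11 and 6.27 in CD25+CD49f+, CD25+CD49f-, CD25-CD49f+ and CD25-CD49f- cells, with a CD49f difference of -0.56 in CD25+ cells (adjusted p = 0.00927) and of 1.85 in CD25- cells (adjusted p = 9.66e-13). The next 4 in brightness were called higher in CD25-CD49f+ cells than without CD49f, by 1.57, 1.43, 1.42 and 0.48, and were not called between the CD25+ populations, where they differed by -0.10, -0.72, -0.51 and -0.10. The dimmest 3 had group means between 3.42 and 5.03 and passed in no comparison. Without the 4 arrays that stand apart, the fourth and the fifth in brightness were also called between the CD25+ populations (-0.84 and -0.72, adjusted p = 0.00255 and 0.00204).

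**Figure D2:**
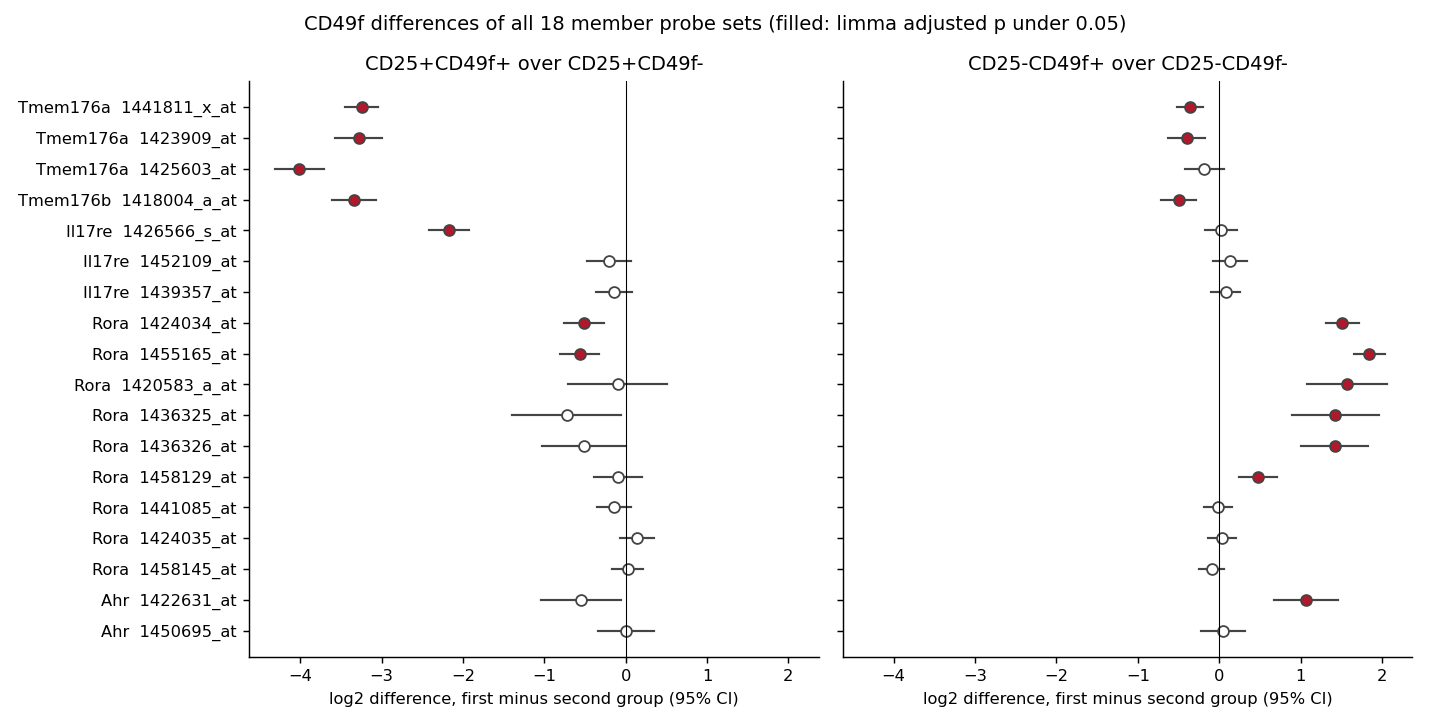
Log2 difference (first minus second group, with its 95% confidence interval) of all 18 member probe sets, for CD25+CD49f+ over CD25+CD49f- cells on the left and CD25-CD49f+ over CD25-CD49f- cells on the right; filled points passed at a limma adjusted p under 0.05. All 7 filled points on the left lie below 0, and the 10 filled points on the right lie below 0 for the Tmem176 genes and above 0 for Rora and Ahr.

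Ahr spans chr12:35497979-35534989. By the brighter of its probe sets it read 7.78, 8.09, 7.75 and 7.99 in CD25+CD49f+ cells, against 8.46, 8.56, 8.37, 8.67 and 8.18 in CD25+CD49f- cells. Its lowest, median and highest levels were 6.80, 7.75 and 7.86 in CD25-CD49f+ cells, against 5.61, 6.76 and 7.05 in CD25-CD49f- cells. The CD25+ populations did not overlap, the CD25- populations overlapped through CD25-CD49f+ replicate 1 alone, and the arrays that stand apart were the lowest of their groups. Ahr was 2.10-fold higher in CD25-CD49f+ cells than in CD25-CD49f- cells (1.07 ± 0.19, limma adjusted p = 0.000313), a call lost within the arrays with Y-linked transcripts (1.22, adjusted p = 0.0620). In CD25+ cells the CD49f difference was -0.54 ± 0.24 and did not pass (adjusted p = 0.749); without the 4 arrays that stand apart it was -0.61 ± 0.11 and passed (adjusted p = 0.00256).

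The dimmer Ahr probe set averaged between 5.06 and 5.17 in the 4 groups and passed in no comparison. In order of level, Ahr ran from CD25+CD49f- through CD25+CD49f+ and CD25-CD49f+ to CD25-CD49f- cells, and the test separated only the last step. The genes closest to Ahr were Map3k8 (r = 0.966 over 23 arrays), a kinase of inflammatory signalling, then Chsy1 (0.962), Elk3 (0.952) and Zfp52 (0.946). For Rora they were Dok2 (0.937), an adaptor of receptor signalling, then Unc119 (0.930), Acot7 (0.928) and Gata3 (0.927), the factor of T helper 2 cells. Rora and Ahr correlated with each other at r = 0.733, and each correlated at 0.216 to 0.584 with the Tmem176 pair and Il17re.

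Whether the CD49f difference itself depended on CD25 was tested as an interaction. All 5 measured genes passed, and in each the CD49f difference in CD25+ cells lay below that in CD25- cells, the difference of differences being -2.89 for Tmem176a (limma adjusted p = 1.25e-13), -2.85 for Tmem176b (3.05e-11), -2.19 for Il17re (5.34e-10), -2.03 for Rora (2.68e-09) and -1.61 for Ahr (0.00173). Of the 18 probe sets 11 passed, all in this direction, against 3.13% of all probe sets in either direction and 2.52% in this one. The genes reached it by different routes. For the Tmem176 pair a large fall in CD25+ cells met a small one in CD25- cells, for Il17re a fall in CD25+ cells met no called difference, for Rora a rise in CD25- cells met a smaller fall in CD25+ cells, and for Ahr a rise in CD25- cells met no called difference. Within the arrays with Y-linked transcripts, and within those without, the Ahr interaction was -1.76 and -1.53 and no longer passed (adjusted p = 0.169 and 0.154).

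The CD25 comparisons at a fixed CD49f gate mirror these levels and share the same arrays. In CD49f- cells every measured gene was higher with CD25 than without it: Tmem176a by 2.75, Tmem176b by 2.33, Ahr by 1.87, Il17re by 2.12 and Rora by 1.41 on the log2 scale (limma adjusted p at most 4.04e-07). In CD49f+ cells the comparison of CD25+CD49f+ with CD25-CD49f+ cells called 4 of the 18 probe sets, all lower, against 3.24% of all probe sets in either direction and 1.66% lower, namely 1 of Tmem176a, that of Tmem176b and 2 of Rora. Rora there differed by -0.62 ± 0.11 (adjusted p = 0.00109) and Ahr by 0.26 ± 0.22 (adjusted p = 0.909). None of the 18 passed there within the arrays with Y-linked transcripts or within those without, where 0.597% and 1.25% of all probe sets passed, and 7 passed without the 4 arrays that stand apart, where 7.69% of all did.

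Double positive and double negative cells, and the single positive populations, were compared as well. CD25+CD49f+ over CD25-CD49f- cells called 9 probe sets, 5 higher and 4 lower, against 9.29% of all (5.07% higher and 4.22% lower): Rora (0.90) and Ahr (1.33) were higher, Tmem176a (-0.50) and Tmem176b (-1.01) were lower, and Il17re did not pass (-0.06, adjusted p = 0.882). The Tmem176a call was lost within the arrays without Y-linked transcripts (-0.34, adjusted p = 0.178) and the Ahr call within those with them (1.33, adjusted p = 0.0640). CD25+CD49f- over CD25-CD49f+ cells called 6, all higher, against 5.14% of all in either direction and 3.02% higher: Tmem176a by 3.11, Tmem176b by 2.82, Il17re by 2.09 and Ahr by 0.80. Rora did not differ detectably between these single positive populations (-0.11, 95% interval -0.32 to 0.11, adjusted p = 0.843). This Ahr call was lost within the arrays without Y-linked transcripts (0.95, adjusted p = 0.188), within those with them (0.64, adjusted p = 0.577), and on leaving out CD25+CD49f- replicate 2 (0.77, adjusted p = 0.0525) or replicate 4 (0.75, adjusted p = 0.0620).

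Other genes of the interleukin 17 and interleukin 23 pathway were read from a list of 16 ligands, receptors and associated chemokine genes, of which 13 were measured. Between CD25+CD49f+ and CD25+CD49f- cells, 4 of the 13 fell and none rose, against 1.37% of all genes lower and 0.286% higher: the interleukin 1 receptor Il1r1 (-2.06 ± 0.16), the chemokine receptor Ccr6 (-1.33 ± 0.16), the interleukin 17 family receptor chain Il17rb (-1.21 ± 0.16) and the cytokine Il21 (-1.19 ± 0.18; limma adjusted p at most 0.000223). The list's median was -0.09, against 0.01 over all genes. Il1r1 averaged 5.42 with CD49f, against 7.48 without it, Il17rb 5.37 against 6.58 and Il21 4.99 against 6.18. Both levels of Il17rb and of Il21 lie within the range of the transcripts of other tissues (2.94 to 6.74). The upper level of Il17rb lies below the top of that range through Prm1 alone, the next transcript being Pomc at 6.20. Il17ra, the partner of Il17re, averaged 9.69 and 9.88 in these populations and did not pass (adjusted p = 0.99999). Il17a itself averaged between 5.95 and 6.03 in the 4 groups and passed in no comparison.

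In CD25- cells the same list behaved otherwise: 3 genes were higher and 2 lower in CD25-CD49f+ cells than in CD25-CD49f- cells, against 7.50% and 4.94% of all genes. Il12rb1, the shared chain of the interleukin 12 and 23 receptors, was higher by 1.56 ± 0.12 (limma adjusted p = 5.5e-10), Ccr6 by 1.25 ± 0.13 (adjusted p = 1.84e-07) and Il17rb by 0.43 ± 0.13 (adjusted p = 0.0293). Il17ra was lower (-0.33, adjusted p = 0.0149), as was Il6st, the signalling chain of the interleukin 6 receptor (-0.61, adjusted p = 0.0391). Without the 4 arrays that stand apart 1 gene rather than 2 was lower. In that fit 13.5% of all probe sets passed in either direction, against 9.83% on all arrays. Between CD25+CD49f- and CD25-CD49f- cells Ccr6 (3.0), Il1r1 (2.10), Il12rb1 (1.78) and Il17rb (1.24) were higher and Il17ra (-0.58) was lower, against 8.78% higher and 4.36% lower of all genes.

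**Figure D3:**
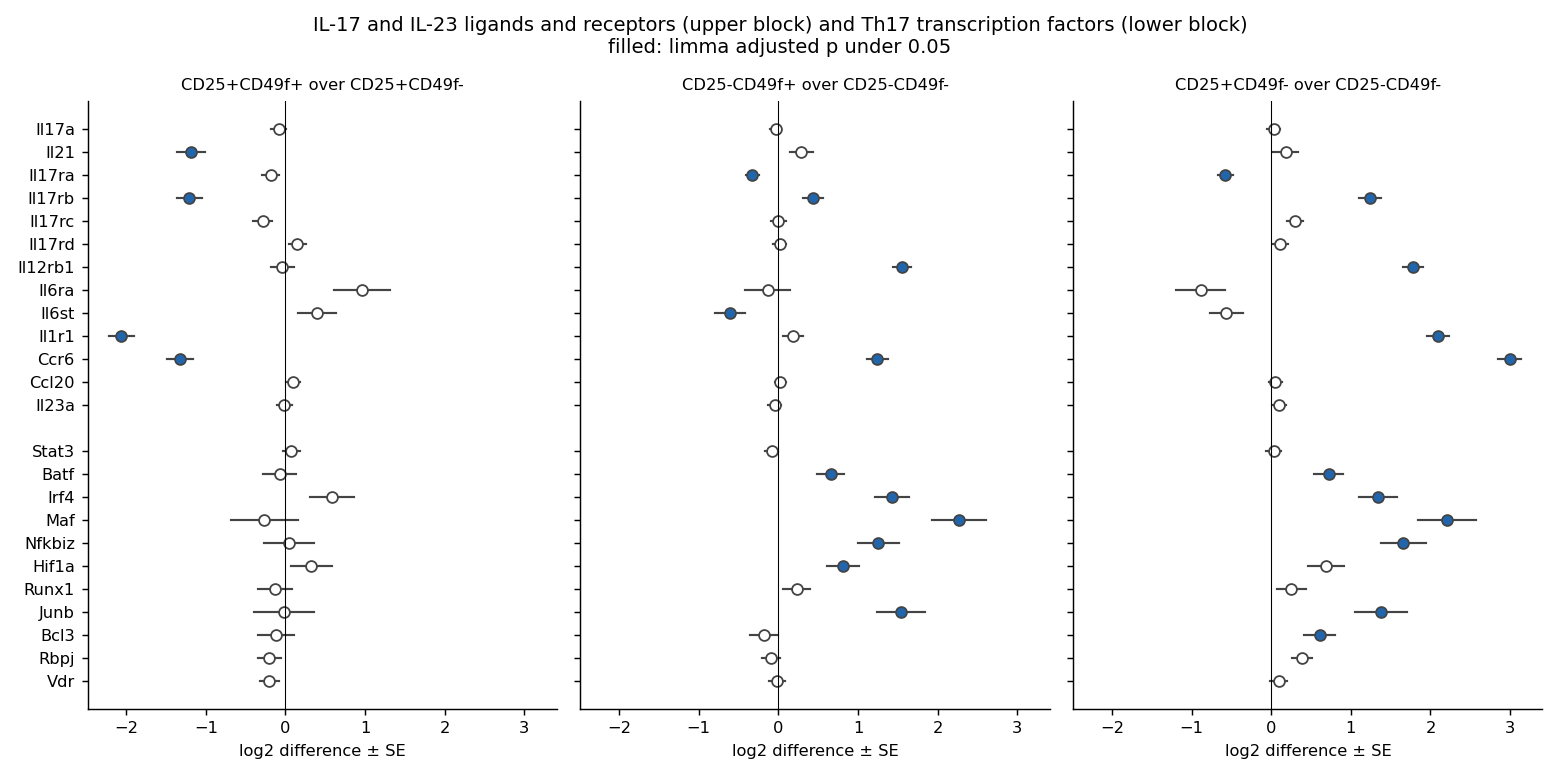
Log2 difference ± SE of the measured interleukin 17 and interleukin 23 ligands and receptors (upper block, 13 genes) and Th17 transcription factors (lower block, 11 genes) in 3 comparisons, with points filled at a limma adjusted p under 0.05. Il21, Il17rb, Il1r1 and Ccr6 are filled below 0 between the CD25+ populations, where no transcription factor is filled, while 6 transcription factors are filled above 0 in each of the other panels.

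Among Th17 transcription factors, 11 were measured. None passed between the CD25+ populations (list median -0.07), where 1.66% of all genes did, whereas 6 were higher in CD25-CD49f+ cells than in CD25-CD49f- cells, against 7.50% of all genes (list median 0.66, against -0.02 over all genes). These were Maf by 2.27 ± 0.34, Junb by 1.54 ± 0.30, Irf4 by 1.43 ± 0.22, Nfkbiz by 1.26 ± 0.25, Hif1a by 0.81 ± 0.20 and Batf by 0.66 ± 0.16 (limma adjusted p at most 0.00937). Stat3, which relays interleukin 6 and interleukin 23 signals, averaged between 9.92 and 10.10 in the 4 groups and passed in no comparison. Between CD25+CD49f- and CD25-CD49f- cells 6 were higher, among them Maf (2.21), Nfkbiz (1.66) and Irf4 (1.34), against 8.78% of all genes higher. Without the 4 arrays that stand apart 9 were higher, and there 13.1% of all probe sets passed in either direction, against 9.96% on all arrays. Rora and Ahr were higher in both of these comparisons too, on the same arrays.

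Of the partners and targets of Ahr, 8 of 9 were measured. None passed between the CD25+ populations (list median -0.05), where 1.66% of all genes did. In CD25- cells 1 of the 8 was higher and 2 were lower with CD49f, against 7.50% and 4.94% of all genes (list median -0.07). Nqo1, a detoxifying enzyme, was higher by 0.44 ± 0.09 (limma adjusted p = 0.00174), while Nfe2l2, the factor of the oxidative stress response, was lower (-0.52 ± 0.12, adjusted p = 0.00606), as was the repressor Ahrr (-0.32 ± 0.10, adjusted p = 0.0363). Nqo1 averaged 4.77 with CD49f and 4.33 without it, and Ahrr 3.96 and 4.28. These levels lie within the range of the transcripts of other tissues (2.94 to 6.74). Myh6, a heart transcript of that set, was called there too (-0.29, limma adjusted p = 0.0294). Cyp1a1 and Cyp1b1, the classical targets of the receptor, averaged 4.11 to 4.16 and 5.50 to 5.61 in the 4 groups and passed in no comparison. Those levels lie within the same range, so a change in them could be missed. Between CD25+CD49f+ and CD25-CD49f+ cells Tiparp (7.91 and 8.28) was lower (-0.37 ± 0.10, limma adjusted p = 0.0444). Nfe2l2 was lower there too (-0.61 ± 0.15, adjusted p = 0.0157), against 2.57% of all genes, and no gene of the list was called higher. Arnt, the dimer partner of Ahr, averaged between 8.03 and 8.24 and passed in none.

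Relatives of Rora were read from 3 measured genes, of which 1 was lower between the CD25+ populations (1.37% of all genes) and none passed between the CD25- populations. Nr1d1, the REV-ERBα repressor that competes with ROR receptors for the same elements, was lower in CD25+CD49f+ cells than in CD25+CD49f- cells (-0.83 ± 0.14, limma adjusted p = 0.00152) and higher in CD25+CD49f- cells than in CD25-CD49f- cells (0.87 ± 0.13, adjusted p = 2e-05). Nr1d1 averaged 4.95, 5.78 and 4.90 in these 3 populations, within the range of the transcripts of other tissues (2.94 to 6.74). Its interaction also passed (-0.86, adjusted p = 0.00640), while Rorb and Nr1d2 passed in none of these comparisons. Of 13 measured MS4A genes, 1 was lower between the CD25+ populations and 1 higher with CD49f in CD25- cells, where 1.37% and 7.50% of all genes were. Ms4a4c fell in CD25+CD49f+ against CD25+CD49f- cells (-0.60 ± 0.11, adjusted p = 0.00319) and Ms4a4d was higher in CD25-CD49f+ cells than in CD25-CD49f- cells (0.68 ± 0.18, adjusted p = 0.0137). Ms4a4d averaged 5.21 and 4.53 in these CD25- populations, again within that range. Ms4a4c was also higher in CD25+CD49f- over CD25-CD49f- cells (0.43, adjusted p = 0.00405) and passed for the interaction (-0.74, adjusted p = 0.00227). The other 11 passed in neither CD49f comparison.

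Markers of other cells moved with some of these results. Of 9 markers of gamma delta T, NKT and related cells 6 were measured, and 4 fell in CD25+CD49f+ against CD25+CD49f- cells, where 1.37% of all genes were lower: 5830411N06Rik (-1.36), Tcrg-V4 (-0.89), Blk (-0.80) and Zbtb16 (-0.72). Both levels of Tcrg-V4 (5.81 and 6.70) and of Zbtb16 (5.77 and 6.49) lie within the range of the transcripts of other tissues. That range runs from 2.94 to 6.74, its top set by Prm1. Zbtb16 averaged 6.58 in CD25-CD49f+ cells and did not differ detectably between the single positive populations (limma adjusted p = 0.915). The list's mean level ran from 5.8 to 6.0 on CD25+CD49f+ arrays, 6.5 to 6.6 on CD25+CD49f- arrays, 6.2 to 6.3 on CD25-CD49f+ arrays and 5.8 to 6.1 on CD25-CD49f- arrays, so it was highest where the Tmem176 pair and Il17re were highest. The remaining 2, Sox13 and Cd163l1, averaged between 5.61 and 5.98 in the 4 groups and passed in neither CD49f comparison nor between CD25+CD49f- and CD25-CD49f- cells.

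Innate lymphoid cells, which carry Rora and in part Tmem176 genes, were followed by 5 measured markers of 6. Kit (-2.71), Klrg1 (-1.95) and Id2 (-1.52) fell in CD25+CD49f+ against CD25+CD49f- cells, 3 of the 5 against 1.37% of all genes lower, while Gata3 (-0.17) and Ncr1 (-0.39) did not pass. The list's mean level ran from 7.40 to 7.59, 8.56 to 9.05, 7.67 to 8.15 and 7.30 to 7.75 in CD25+CD49f+, CD25+CD49f-, CD25-CD49f+ and CD25-CD49f- cells. Klrg1, Id2 and Gata3 are also made by regulatory T cells, so the list is not specific to innate cells. The part of these markers in the Tmem176 and Il17re result was not tested.

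Of 15 myeloid and dendritic cell markers 14 were measured, and some moved with the smaller Tmem176 differences among CD25- cells. In CD25-CD49f+ against CD25-CD49f- cells 7 fell, against 4.94% of all genes lower, among them Itgax, the CD11c integrin of dendritic cells (-1.92 ± 0.25), Tyrobp (-1.44 ± 0.23), Mpeg1 (-1.40 ± 0.21) and Siglech of plasmacytoid dendritic cells (-1.36 ± 0.18). The rest did not pass, among them Lyz2 (0.06), Cst3 (0.06), Csf1r (-0.07) and Fcer1g (-0.68). The list's mean level ran from 6.66 to 7.21 on CD25-CD49f+ arrays and from 6.85 to 7.99 on CD25-CD49f- arrays, where Tmem176a and Tmem176b were higher too. On CD25-CD49f- replicates 1 to 7 it was 6.85, 7.76, 7.34, 7.43, 7.78, 7.89 and 7.99, beside Tmem176b levels of 7.87, 8.46, 8.01, 8.11, 8.31, 8.74 and 8.23. The lowest array was the same in both, replicate 1, which stands apart and has an Actb 3′ minus 5′ difference of 2.70. The highest was replicate 7 for the list, which also stands apart, and replicate 6 for Tmem176b. The part of these markers in the Tmem176 difference was not tested. Between the CD25+ populations the list's mean level was 6.35 to 6.95 in CD25+CD49f+ cells and 6.48 to 6.96 in CD25+CD49f- cells, and 1 of the 14 (Fcer1g, -1.98) was lower, against 1.37% of all genes. In CD25+CD49f- against CD25-CD49f- cells Itgax (-2.42), Mpeg1 (-1.58), Tyrobp (-1.35), Siglech (-1.33), Ly86 (-1.24), Clec4a2 (-0.90) and Flt3 (-0.55) were lower, against 4.36% of all genes. Fcer1g (0.92) was higher, against 8.78% of all genes, and the rest did not pass. Tmem176a was higher there by 2.75.

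**Figure D4:**
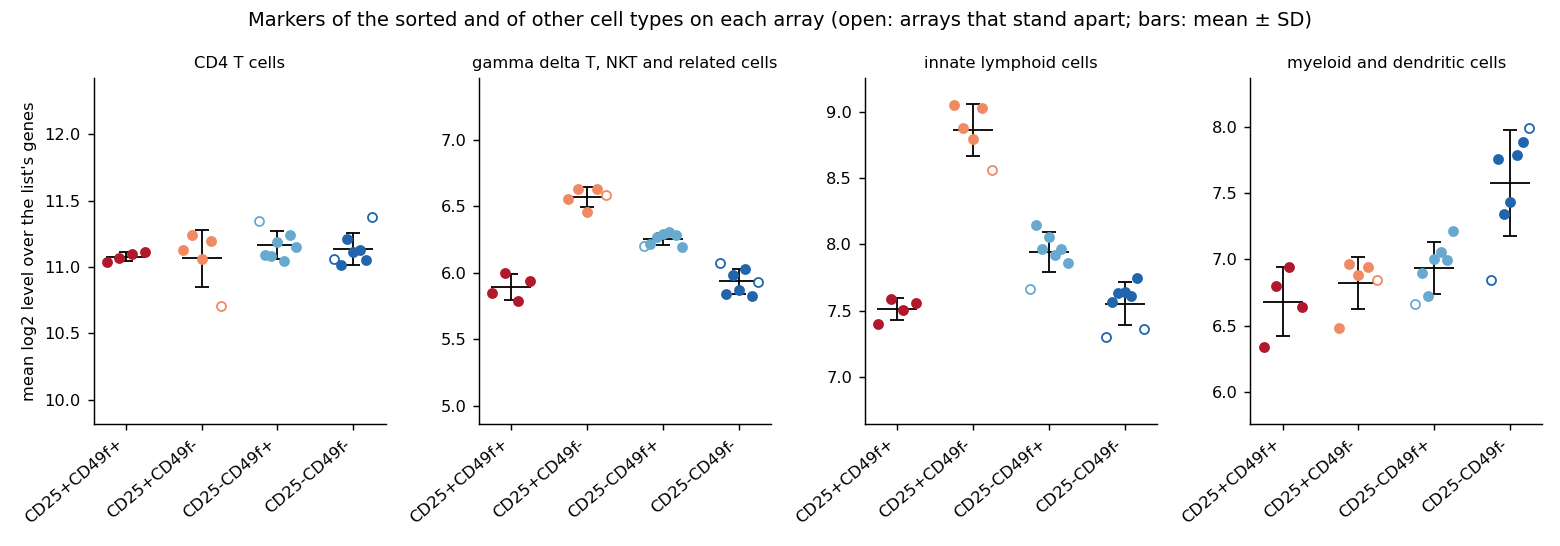
Mean log2 level over the measured genes of 4 marker lists on each of the 23 arrays, for CD25+CD49f+, CD25+CD49f-, CD25-CD49f+ and CD25-CD49f- cells from left to right; bars show the mean ± SD and open points the 4 arrays that stand apart, and each panel has its own range. The gamma delta and innate lymphoid lists are highest in CD25+CD49f- cells, the myeloid and dendritic list reaches 7.99 in CD25-CD49f- cells, and the CD4 T cell list lies near 11 in every group apart from 10.71 on CD25+CD49f- replicate 5.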

How the data were processed

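Total RNA was extracted with a silica column kit, labelled with biotin and hybridised to Affymetrix mouse arrays, per the labels' protocols. The deposited table holds log2 expression values of 45101 probe sets on 23 arrays; the authors made them with RMA, per the submitters' processing notes, whose version no source used here gives. RMA corrects background, normalises arrays to one another and summarises probes, which compresses differences at low levels. No further scaling was applied.

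After 64 control probe sets were left out, 45037 entered a single limma 3.58.1 fit of the 4 groups (R 4.3.3) for the 6 pairs of groups and the interaction, with Benjamini-Hochberg adjustment of the p-values over all probe sets. The fit was tested on simulated data with known differences. Array annotation named 1 gene for 34958 probe sets, several for 932 and none for 9211. A gene's level is that of its brightest probe set by mean over all arrays, and all member probe sets are reported. Pathway genes named are up to 3 called genes per list and comparison with the smallest p, with a few more given for completeness, and likeness genes are the 4 with the highest Pearson correlation. The members, gene lists and naming rules were chosen with earlier results of these data known. Coordinates and start windows are from RefSeq, GRCm38.p6. The values do not show that replicate numbers pair the arrays. Of 29 pairs of arrays with the same number, 12 correlated above 0.1 in their deviations from the group means. Only 4 of 23 arrays correlated best with their own number. Pairing is not excluded, since in both CD25+ populations replicates 1 and 2 held Xist and replicates 3 and 4 Y-linked transcripts. No 2 arrays were identical. Alternatives were leaving out each array, replicate blocks, other scalings, array weights, a robust and trended fit, a stricter threshold, fits of fewer groups or probe sets, and the arrays with or without Y-linked transcripts. Leaving out the 4 arrays that stand apart and adjusting for the Actb 3′ to 5′ difference were chosen after seeing the data.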

Additional observations from a re-analysis of the deposited data

Results flagged for a closer look

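CD25-CD49f+ replicate 1 had an Ahr level of 6.80, and the nearest other array of that group read 7.70, a gap of 0.90 that takes up most of the group's range. It was the only such array among 20 groups of arrays examined for the 5 genes, and chance alone flags about 1 in 20. The same array is 1 of the 4 that stand apart from their groups.

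The difference made by CD49f was not the same in CD25+ and CD25- cells for any of the 5 measured genes, by limma's interaction test. The difference of differences was -2.89 for Tmem176a, -2.85 for Tmem176b, -2.19 for Il17re, -2.03 for Rora and -1.61 for Ahr on the log2 scale.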

How the results depend on the processing

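Of the 35 differences of 5 genes in 7 comparisons, 24 kept their side of the threshold under every alternative run, and of 1325 values 33 lost a call, 2 gained one and none turned its direction past the threshold. The number of member probe sets called for CD25+CD49f+ over CD25-CD49f+ cells was 4, against 3.24% of all probe sets. It became 7 with array weights, and 7 without the 4 arrays that stand apart (7.69% of all). It was 0 both within the arrays with Y-linked transcripts (0.597% of all) and within those without (1.25% of all). Within the arrays with Y-linked transcripts it was 5 between CD25-CD49f+ and CD25-CD49f- cells and 7 for the interaction, and within those without it was 5 between CD25+CD49f+ and CD25-CD49f- cells, where all probe sets were also called less often (3.06%, 0.722% and 4.37%); these fits hold fewer arrays. Leaving out 1 array at a time gave 6 to 7 calls between the CD25+ populations, 9 to 10 between the CD25- populations, 3 to 5 between the CD49f+ populations, 11 to 14 between the CD49f- populations, 7 to 9 for CD25+CD49f+ over CD25-CD49f- cells, 5 to 6 for CD25+CD49f- over CD25-CD49f+ cells and 11 to 12 for the interaction. With the replicate number as a block, Rora between the CD25+ populations was -0.51 (adjusted p = 0.0743) and Tmem176b between the CD49f+ populations -0.43 (adjusted p = 0.0848), both losing their call, and the block changed no other call of the 35. Rora between the CD25+ populations was also lost with median scaling (-0.52, adjusted p = 0.0617) and with the 2 groups fitted alone (adjusted p = 0.0744), and Ahr there was gained with array weights (-0.57, adjusted p = 0.0192). The share of all probe sets called between the CD25+ populations was 1.11%, against 0.402% within the arrays without Y-linked transcripts, 0.311% within those with them and 1.79% without the 4 arrays that stand apart. Array number and the lack of detection calls at low signal limit what these values can show, and other causes of these changes were not tested.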
